A study of Danio rerio with 6 samples.

Results

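The collagen genes were taken as the rows of the deposited expression table whose symbol, in lower case, starts with col, a type number, the letter a and a chain number. Of 31624 genes in the table, 54 matched. The genes col4a3bpa and col4a3bpb match by name only, since both encode a ceramide transfer protein (CERT1 in the reference names), and they were kept apart. The remaining 52 rows carry 50 symbols of 20 collagen types, because col6a3 and col19a1 each stand for 2 Ensembl genes. A further 5 rows with collagen symbols in capitals lie outside the rule. The libraries came from zebrafish (Danio rerio) embryos, 3 with the genotype label Trdmt1 knockout and 3 with the label wildtype, which serve as controls. Trdmt1, also called Dnmt2, is an RNA methyltransferase that acts on transfer RNAs. The kind of allele, the embryo age and the clutch of origin are not given in the sources used here. The p-values therefore measure only the spread between these libraries, which may be technical.

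Collagens are extracellular proteins whose chains, each with long stretches in which every repeat opens with glycine, wind into helical trimers. Fibrillar collagens pack into the banded fibrils of skin, tendon, bone and cartilage, whereas the network-forming type IV collagens build the basement membranes under epithelia and around muscle, vessels and nerves. Cartilage and the notochord sheath are built mainly of type II fibrils, with type XI inside the fibril and type IX on its surface, and type X marks cartilage cells that enlarge before bone forms.

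The genes were grouped by type number. Types I, II, V, XI, XXIV and XXVII were taken as fibrillar (16 genes), types II, IX, X and XI as cartilage collagens (11 genes) and types IV, VII, XV and XVIII as basement membrane collagens (10 genes). The 5 genes of types II and XI belong to both of the first 2 groups. Another 20 rows of other types remained.

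Reads counted in genes ranged from 12877132 to 18721589 per library. Knockout 3 stood apart from the other libraries, with a correlation of log2 CPM across genes of 0.937 to 0.941 with each of them, against 0.969 to 0.976 in the pairs without it, apart from knockouts 1 and 2. The correlation between those 2 libraries was 0.992. A chi-square over genes, divided by its degrees of freedom, was 1.58 for them and at least 11.7 for every other pair. They were kept as separate samples as labelled. Levels are given in RPKM, reads scaled to the exonic length of the gene and to the reads counted in genes in that library. For the targeted gene, trdmt1, the level was 3.10, 2.60 and 1.08 RPKM in controls 1, 2 and 3 and 1.59, 1.40 and 1.07 RPKM in knockouts 1, 2 and 3. The ranges overlapped and the difference was not called (edgeR adjusted p = 0.746), so the transcript does not check the labels.

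Type I collagen, the main fibril of skin and bone, gave the highest level of any collagen gene per length. The gene for its alpha 1 chain, col1a1a, averaged 462 ± 63.7 RPKM in controls (SD, n = 3), and its paralog col1a1b averaged 171 ± 12.2 RPKM. The alpha 2 chain gene col1a2 stood at 173 ± 7.45 RPKM. Between col1a1a and these ranked col2a1a, the main type II gene of cartilage and notochord, at 247 ± 57.9 RPKM, and below them col9a3, a type IX chain gene, at 112 ± 19.9 RPKM. Basement membrane chains were less abundant per length: the highest, col4a5, averaged 55.4 ± 4.94 RPKM in controls. Summed over genes, the fibrillar group held 1482 ± 142 RPKM in controls, the cartilage group 876 ± 168 RPKM and the basement membrane group 162 ± 10.6 RPKM (SD, n = 3 each). The lowest members were col28a1b, with 7 to 21 reads per library, and col10a1b, with 8 to 17 reads, whose values carry the largest counting error.

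**Figure D1:**
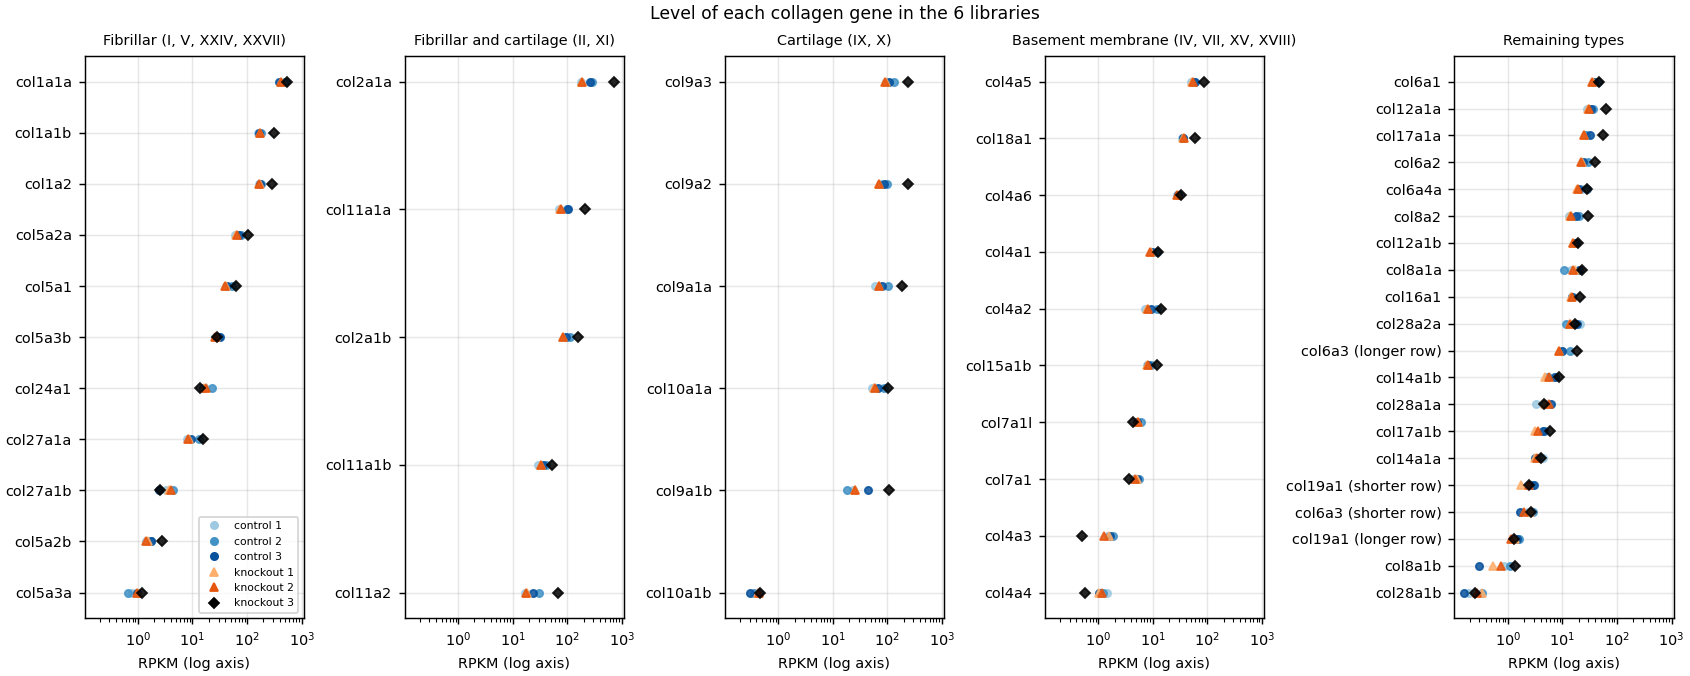
Level of each of the 52 collagen rows in RPKM (log axis), with 1 point per library, by class and sorted by mean level. Knockout 3 (black diamonds) lies to the right of the other libraries in all 11 genes of types II, IX, X and XI, and to their left in col4a3 and col4a4.

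The main comparison asked which collagen genes differed between knockout and control embryos. None of the 52 was called in either direction by edgeR's quasi-likelihood test, at a p under 0.05 after Benjamini-Hochberg adjustment over 20555 genes. Of all genes tested, 0.102% were called higher and 0.0146% lower, or 0.117% in all. None had an unadjusted p under 0.05 either, against 7.47% of all genes tested, and DESeq2 also called 0 with 0 at an unadjusted p under 0.05. The lowest adjusted p among them was 0.748, for col5a3a. All knockout libraries lay above all controls in 1 gene, col5a3a, where 6.3% of all genes did, and below all controls in 2, both rows of col19a1, where 9% did. These counts, 1 and 2 of 52, are not above the background. In bulk RNA of embryos, fewer cells of a type and less RNA per cell cannot be told apart. The log2 fold changes of the 52 rows had a median of 0.14, with 38 positive, beside a median of -0.00385 and 49.5% positive over all genes tested.

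The knockout libraries did not move together. Knockout 3 was the highest of the 6 libraries in 38 of the 52 collagen rows, or 73.1%, against 28.6% of all genes tested. On log2 CPM with TMM scaling, a scale added after seeing the data, the count was also 38, against 30.1% of all genes. Knockouts 1 and 2, by contrast, lay within the range of the controls in 33 and 34 of the 52 rows, where 53.7% and 53.4% of all genes did. Without knockout 3 the knockout group consists of knockouts 1 and 2, whose counts were nearly alike, so that the spread within it may be technical only and p-values in that setting may be too small. The median log2 fold change of the 52 rows was then -0.13 in place of 0.14, and 39 were negative, where 52.7% of all genes were. Of the 52, 0 were called and 1, col17a1b, had an unadjusted p under 0.05, where 0.985% and 12% of all genes did.

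**Figure D2:**
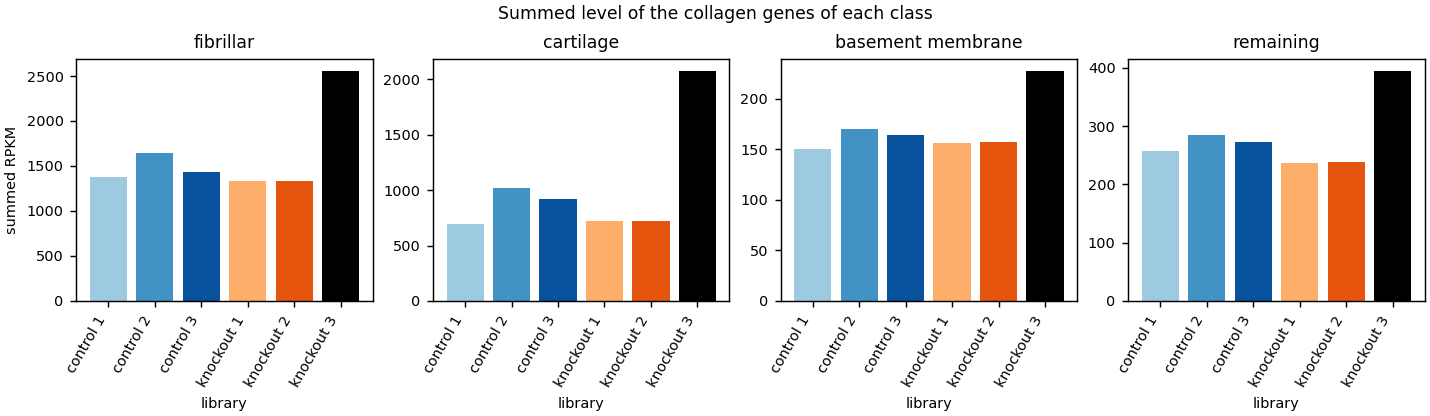
Summed RPKM of the collagen genes of each class in each library (bars, axes start at 0 and differ between panels; types II and XI count in both the fibrillar and the cartilage panel). The cartilage sum of knockout 3 was 2079 RPKM, and those of the other 5 libraries lay between 693 and 1021 RPKM.

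Among the fibrillar genes outside the cartilage group, type I split between its paralogs. The level of col1a1a was 501, 496 and 388 RPKM in controls 1, 2 and 3 and 420, 419 and 538 RPKM in knockouts 1, 2 and 3. The groups overlapped, and the highest knockout exceeded the highest control by little. For col1a1b the controls stood at 160, 184 and 169 RPKM and the knockouts at 175, 175 and 306 RPKM, so that knockout 3 alone left the range of the others. The same held for col1a2, at 167, 181 and 170 RPKM in controls and 171, 169 and 282 RPKM in knockouts. The log2 fold changes were 0.03 ± 0.17 (SE) for col1a1a, 0.39 ± 0.23 for col1a1b and 0.30 ± 0.21 for col1a2, with edgeR adjusted p between 0.756 and 0.980. Without knockout 3 they were -0.09, 0.08 and 0.02.

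Type V chains, which join type I fibrils and limit their width, ranged from 0.793 RPKM for col5a3a to 69.7 RPKM for col5a2a in the control means. The genes col5a1 and col5a2a stood at 62.6 and 103 RPKM in knockout 3, above the other libraries at 40.0 to 52.3 and 59.08 to 78.6 RPKM. Another type V gene, col5a3b, went differently: its knockout values of 27.02, 26.4 and 27.7 RPKM all lay within the control range of 25.3 to 32.3 RPKM. The rare fibrillar chain col24a1 was lowest in knockout 3, at 13.6 RPKM against 15.9 to 23.2 RPKM in the other libraries. The log2 fold change was -0.09 ± 0.15 for col5a3b and -0.20 ± 0.19 for col24a1 (edgeR adjusted p = 0.920 and 0.841). The deposited exonic length of col24a1, 1185 bases, is short for a fibrillar chain. Of the lower fibrillar genes, col27a1a stood at 7.83 to 13.4 RPKM in controls and 8.43 to 15.7 RPKM in knockouts, col27a1b at 2.39 to 4.41 and 2.53 to 4.06 RPKM, and col5a2b at 1.43 to 1.77 and 1.43 to 2.72 RPKM. Of the 11 fibrillar genes outside the cartilage group, 9 log2 fold changes were positive, with a median of 0.14. Over all 16 fibrillar genes, types II and XI included, 14 were positive, with a median of 0.20. Without knockout 3 the median over the 16 was -0.10, with 12 negative.

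The cartilage collagens showed the widest gap between libraries. Type II gene col2a1a stood at 181, 292 and 267 RPKM in controls 1, 2 and 3, at 191 and 188 RPKM in knockouts 1 and 2 and at 717 RPKM in knockout 3. That is 2.91 times the control mean for knockout 3, while the mean of knockouts 1 and 2 was 0.768 times it. The type IX chain gene col9a1b had the largest log2 fold change of the 52 rows, 0.90 ± 0.65 (SE), and measured 23.96, 18.2 and 43.9 RPKM in controls against 25.7, 25.5 and 106 RPKM in knockouts. Its partner chain gene col9a2 measured 72.4, 101 and 89.1 RPKM in controls against 70.6, 72.0 and 244 RPKM in knockouts. Type XI gene col11a2, at 17.2, 30.8 and 23.7 RPKM in controls and 18.1, 17.97 and 68.7 RPKM in knockouts, followed the same order. In each of these genes knockouts 1 and 2 lay within or just below the control range, and knockout 3 above it.

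The type IX chain genes col9a1a and col9a3 had levels of 183 and 236 RPKM in knockout 3, against 60.2 to 105 and 91.0 to 133 RPKM in the other libraries. The type X gene col10a1a was less far apart, at 104 RPKM against 52.0 to 87.8 RPKM. Type II paralog col2a1b stood at 157 RPKM against 85.4 to 112 RPKM, and the type XI genes col11a1a and col11a1b at 210 and 52.8 RPKM against 70.6 to 103 and 29.4 to 41.3 RPKM. Of the 11 cartilage genes, 10 reached at least 1.5 times the control mean in knockout 3 on the TMM scale, as 15.9% of all genes tested did. The log2 fold changes of all 11 were positive, with a median of 0.43, and 0 were called. For col2a1a the value was 0.60 ± 0.53 (SE), for col9a2 0.59 ± 0.47 and for col11a2 0.59 ± 0.54, with edgeR adjusted p between 0.812 and 0.837. Without knockout 3 the median over the 11 genes was -0.18 and 10 of them were negative, col2a1a at -0.34 ± 0.18.

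**Figure D3:**
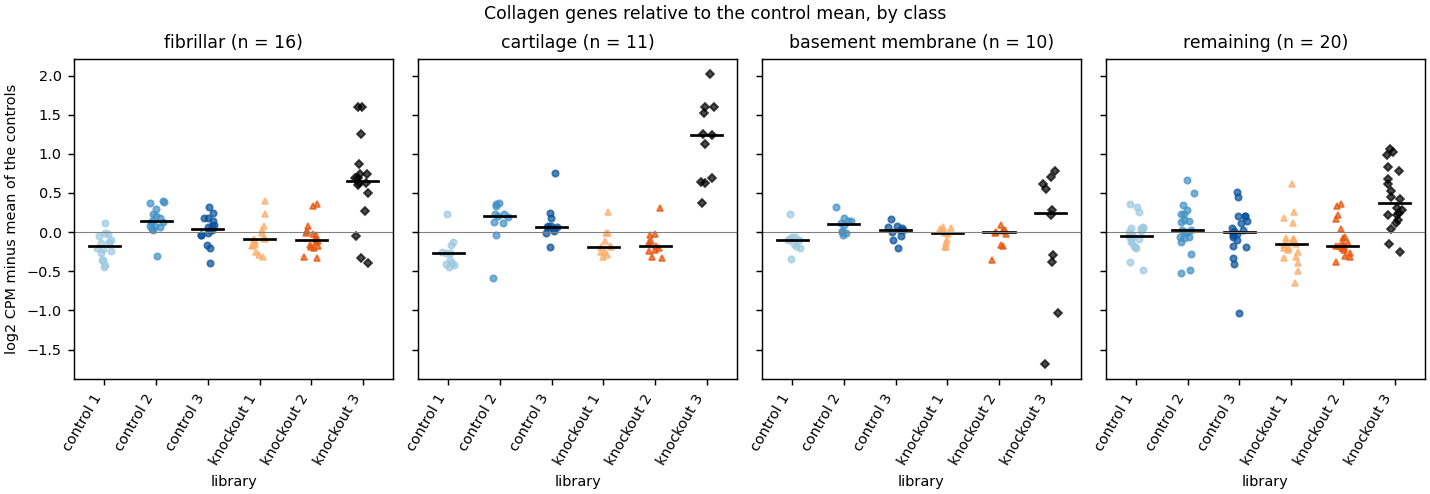
Log2 CPM of each collagen gene minus its mean in the controls, by class and library, where 1 point is 1 gene and the bar is the median over genes. In knockout 3 the median was 1.24 for cartilage, 0.66 for fibrillar, 0.25 for basement membrane and 0.37 for the remaining types, while in knockouts 1 and 2 it lay between -0.18 and -0.00 in each class.

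Some marker lists of cell types also set knockout 3 apart, and others did not. Chondrocyte markers, 6 of 8 found and 1 of them matn1, summed to 429 RPKM in knockout 3, to 134 to 153 RPKM in the controls and to 122 RPKM in knockouts 1 and 2. The cartilage matrix gene matn1 alone stood at 253 RPKM in knockout 3 and at 33.1 to 56.6 RPKM in controls. Knockouts 1 and 2 lay below all controls, at 21.2 and 20.4 RPKM. Its log2 fold change was 1.27 in the full set and -0.97 without knockout 3. The lower sum of knockouts 1 and 2 mostly follows matn1. In these 2 libraries sox9a stood at 33.1 and 30.9 RPKM, against 24.1 to 32.3 RPKM in controls. There epyc was within the control range, at 31.8 and 32.9 RPKM, and acana below it, at 5.38 and 5.28 against 5.65 to 10.2 RPKM. Knockout 3 was highest in 5 of the 6 chondrocyte rows, against 28.6% of all genes tested. Notochord markers, 5 rows for 6 listed symbols that include an older name, summed to 81.6 RPKM in knockout 3 and to 46.3 to 53.0 RPKM elsewhere. Of the 4 tested, 3 were highest in knockout 3, among them cmn, at 27.75 RPKM against 3.59 to 8.11 RPKM. The most abundant, cav1, was level at 33.5 to 37.0 RPKM in all 6 libraries. Photoreceptor markers, all 6 found, summed to 724 RPKM in knockout 3, to 24.99 to 69.5 RPKM in controls and to 8.08 and 9.62 RPKM in knockouts 1 and 2. Exocrine pancreas markers, with 7 rows found, summed to 128 RPKM against 9.13 to 21.7 RPKM in the other libraries. Of the 5 hatching gland rows, 4 were lowest in knockout 3, with he1a at 15.01 RPKM against 91.1 to 198 RPKM and he1b at 2.62 RPKM against 9.05 to 32.98 RPKM. The fifth, cd63, was highest there at 162 RPKM. Knockouts 1 and 2, at 128 and 132 RPKM, also lay above the controls, at 95.9 to 116 RPKM. In 6.3% of all genes tested, every knockout lay above all controls. The list summed to 180 RPKM in knockout 3, against 206 to 347 RPKM in the other libraries. Osteoblast markers were scarce, with bglap listed at 0 in every library and sums of 2.76 to 5.13 RPKM. The sums of the fibroblast and tendon markers were 182 to 227 RPKM in controls against 198 to 215 RPKM in knockouts. Within that list knockout 3 was highest in 4 of 7 rows, among them dcn, at 90.2 RPKM against 64.1 to 80.9 RPKM. It was lowest in 1, lum, at 48.1 RPKM against 63.2 to 80.4 RPKM. Epidermis markers summed to 3380 to 3982 RPKM in controls against 4492 to 4801 RPKM in knockouts. Most of it was krt4, at 2619 to 3228 against 3690 to 3731 RPKM, so the sum mostly follows krt4. Among the other 4, krt5 also lay above all controls in every knockout, making 2 of 5, against 6.3% of all genes tested. The genes krt15, epcam and tp63 overlapped, and the median log2 fold change of the list was 0.02. Fast muscle markers summed to 14173 to 16319 RPKM in controls and 14844 to 17135 RPKM in knockouts. Of the 6 rows, 4 were highest in knockout 3, actc1b among them, and 2 lowest, tnnt3a among them. In 1 row, the more abundant of myhz1.1, every knockout lay above all controls, as in 6.3% of all genes tested. It stood at 468 to 720 RPKM in controls and 958 to 1031 RPKM in knockouts (log2 fold change 0.87 ± 0.20, SE, edgeR adjusted p = 0.245). The part of these cell types in the collagen values was not tested.

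Basement membrane collagens went in both directions in knockout 3. The chain genes of the main vertebrate network, col4a1 and col4a2, stood at 9.53 to 12.2 and 7.36 to 11.9 RPKM in controls and at 9.0 to 12.4 and 7.91 to 14.0 RPKM in knockouts, with log2 fold changes of -0.01 ± 0.17 and 0.11 ± 0.25 (SE). The chains col4a5 and col4a6 were more abundant per length. For col4a5 the controls stood at 50.1, 56.0 and 59.9 RPKM and the knockouts at 53.5, 54.3 and 87.9 RPKM. Its neighbour col4a6 was nearly level, at 27.7 to 29.4 RPKM in controls and 28.4 to 32.6 RPKM in knockouts. The log2 fold changes were 0.27 ± 0.21 and 0.10 ± 0.14 (edgeR adjusted p = 0.804 and 0.900).

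The remaining pair, col4a3 and col4a4, whose human counterparts form the network of the kidney filter, was lowest in knockout 3. For col4a3 the level was 1.51, 1.91 and 1.67 RPKM in controls 1, 2 and 3 and 1.61, 1.28 and 0.50 RPKM in knockouts 1, 2 and 3. For col4a4 it was 1.46, 1.23 and 1.04 RPKM in controls and 1.05, 1.18 and 0.58 RPKM in knockouts. Both rest on few reads, 73 to 342 and 94 to 291 per library. Relative to the control mean, knockout 3 stood at 0.295 times for col4a3 and 0.466 times for col4a4, and knockouts 1 and 2 together at 0.852 and 0.897 times. The log2 fold change of -0.54 ± 0.36 (SE) for col4a3 was the lowest of the 52 rows (edgeR adjusted p = 0.777), and it was -0.19 without knockout 3.

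Further basement membrane genes split likewise. The gene col18a1, for the collagen from which endostatin is cut, measured 34.3, 36.7 and 35.6 RPKM in controls against 35.8, 36.8 and 59.4 RPKM in knockouts. Its 5 lower libraries lay within a narrow range, and the log2 fold change was 0.35 ± 0.21 (SE; edgeR adjusted p = 0.761). The related col15a1b stood at 12.2 RPKM in knockout 3 and at 7.74 to 9.33 RPKM elsewhere. The genes of type VII, the anchoring fibril that ties epidermis to dermis, were lowest in knockout 3, with col7a1 at 3.74 RPKM against 4.35 to 5.54 RPKM and col7a1l at 4.33 RPKM against 5.06 to 6.14 RPKM. Of the 10 basement membrane genes, 6 were highest and 4 lowest in knockout 3, where 28.6% and 33% of all genes tested were. The median log2 fold change was 0.05, with 5 positive and 5 negative, or 6 positive with DESeq2 size factors. It was -0.02 without knockout 3 and -0.04 without control 1.

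Of the 20 remaining rows, of types VI, VIII, XII, XIV, XVI, XVII, XIX and XXVIII, 13 were highest and 0 lowest in knockout 3. The type XII gene col12a1a, for a collagen on the surface of type I fibrils, measured 28.6, 37.0 and 32.9 RPKM in controls against 30.0, 30.2 and 63.4 RPKM in knockouts. Its paralog col12a1b hardly differed between libraries, at 15.4 to 19.7 RPKM in all 6. The gene col17a1a, for a transmembrane collagen of the hemidesmosome, measured 25.8, 27.4 and 31.5 RPKM in controls against 24.5, 24.5 and 56.1 RPKM in knockouts. Neither difference was called, with log2 fold changes of 0.37 ± 0.29 for col12a1a and 0.35 ± 0.31 for col17a1a (SE; edgeR adjusted p = 0.806 and 0.831). The paralog col17a1b ranged from 4.33 to 4.75 RPKM across the controls. Knockouts 1 and 2 lay below that range at 3.13 and 3.56 RPKM, and knockout 3 above it at 6.01 RPKM. Without knockout 3 its log2 fold change was -0.41 ± 0.14 (edgeR adjusted p = 0.302), the smallest p of any collagen gene in that setting.

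Type VI genes, whose chains form the beaded filaments around muscle fibres, had small log2 fold changes in the full set. Knockout 3 was the highest library in 4 of the 5 rows, against 28.6% of all genes tested. The longer row of col6a3 stood at 18.6 RPKM there and at 8.54 to 13.85 RPKM elsewhere. The levels of col6a1 and col6a2 were 37.2 to 44.3 and 24.2 to 29.8 RPKM in controls and 34.2 to 47.2 and 22.1 to 39.2 RPKM in knockouts. Their log2 fold changes were 0.02 ± 0.17 and 0.14 ± 0.23 (SE; edgeR adjusted p = 0.990 and 0.914). Without knockout 3 all 5 type VI rows were negative, with a median of -0.18. The network collagen gene col8a1a, of type VIII, stood at 10.7 to 20.2 RPKM in controls and 15.9 to 22.9 RPKM in knockouts. Its partner col8a2 stood at 13.1 to 20.4 RPKM in controls and was highest in knockout 3, at 29.3 RPKM. The type XVI gene col16a1 was likewise highest there, at 21.5 RPKM, against 14.1 to 15.9 RPKM elsewhere. The type XXVIII gene col28a2a stood at 11.7 to 20.6 and 13.6 to 17.3 RPKM, and the type XIV genes col14a1a and col14a1b at 3.11 to 4.39 and 5.50 to 7.33 RPKM in controls against 3.09 to 3.97 and 4.82 to 8.71 RPKM in knockouts. How reads shared between similar rows, such as those of col6a3, were counted is not given, so their separate values are uncertain.

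The 2 rows of col19a1, a collagen that links fibrils to other matrix, were the ones below all controls in every knockout. The longer row measured 1.56, 1.59 and 1.5 RPKM in controls against 1.38, 1.15 and 1.27 RPKM in knockouts, and the shorter 2.87, 2.64 and 2.99 RPKM against 1.72, 2.40 and 2.48 RPKM. Their log2 fold changes of -0.25 ± 0.18 and -0.32 ± 0.28 (SE) were not called (edgeR adjusted p = 0.793 and 0.823). The gene above all controls, col5a3a, measured 0.78, 0.65 and 0.95 RPKM in controls against 1.01, 0.97 and 1.19 RPKM in knockouts. Its log2 fold change was 0.45 ± 0.24, and its lowest knockout and highest control lay close, at 0.97 and 0.95 RPKM. These rows rest on few reads per library, 82 to 122 for col5a3a. The longer row of col19a1 had 126 to 202 reads and the shorter 32 to 64. The 2 genes that match by name only were close to level between groups. The ceramide transfer protein gene col4a3bpb stood at 23.9 to 27.4 RPKM in controls against 25.7 to 31.0 RPKM in knockouts, and col4a3bpa at 4.42 to 5.65 and 4.47 to 5.12 RPKM.

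**Figure D4:**
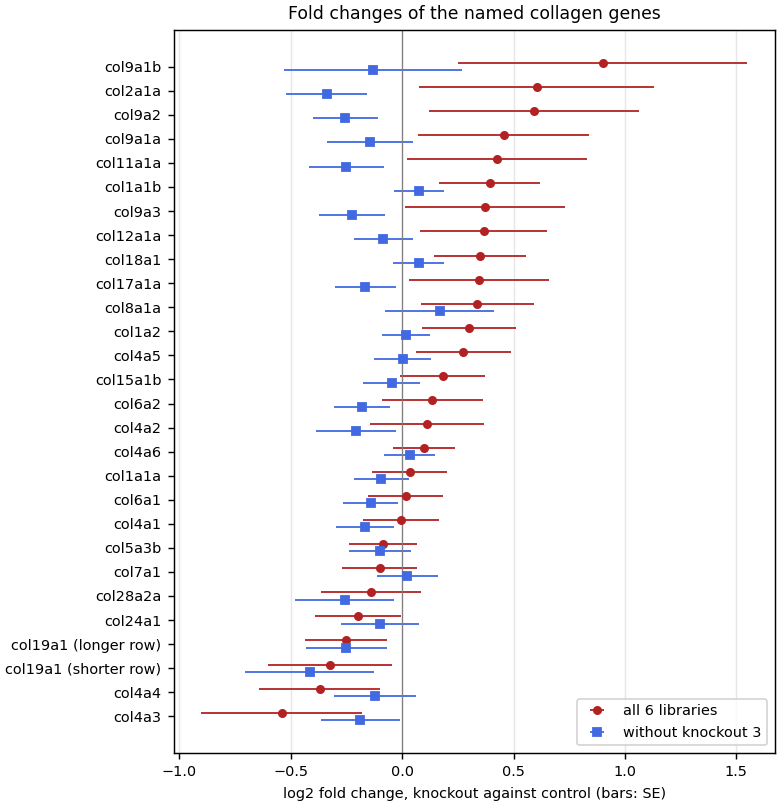
Log2 fold change of knockout against control with its standard error, for the 28 collagen rows named by rule, with all 6 libraries (red circles) and without knockout 3 (blue squares). Without knockout 3 the values of the cartilage genes col2a1a and col9a2 move from 0.60 and 0.59 to -0.34 and -0.25, while both rows of col19a1 stay near -0.25 and below.

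Because chains assemble in fixed proportions, the ratio of chain messages was taken within each library, per length. In mammals, type I collagen is mostly a trimer of a pair of alpha 1 chains and an alpha 2 chain. The gene col1a1b was counted here with alpha 1 by its symbol. The ratio of col1a1a plus col1a1b to col1a2 was 3.95, 3.75 and 3.27 in controls 1, 2 and 3 and 3.48, 3.52 and 3.00 in knockouts 1, 2 and 3. The groups overlapped, at 3.66 ± 0.349 and 3.33 ± 0.291 (SD, n = 3 each). The share of the paralogs varied more: col1a1a to col1a1b was 3.13, 2.70 and 2.297 in controls and 2.40, 2.40 and 1.76 in knockouts. The lowest value of both ratios was that of knockout 3.

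In type IX, whose trimer holds a chain of each kind, the ratio of the 2 alpha 1 genes to col9a2 stayed between 1.16 and 1.38 in all 6 libraries, and that to col9a3 between 0.901 and 1.23. The ratios varied less than the levels, col9a2 itself ranging from 70.6 to 244 RPKM. The ratio of col4a1 to col4a2 ranged from 0.890 to 1.35. In the RefSeq gene table (GRCz12tu), each type IV pair, col4a1 with col4a2, col4a3 with col4a4 and col4a5 with col4a6, lies side by side on its chromosome. The ratio of col4a5 to col4a6 was 1.81 to 2.06 in controls, 1.86 and 1.91 in knockouts 1 and 2 and 2.70 in knockout 3, so these neighbours did not keep a fixed ratio. Cartilage against skin and bone type, col2a1a to col1a1a, ranged from 0.362 to 0.687 in the first 5 libraries and was 1.33 in knockout 3.

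**Figure D5:**
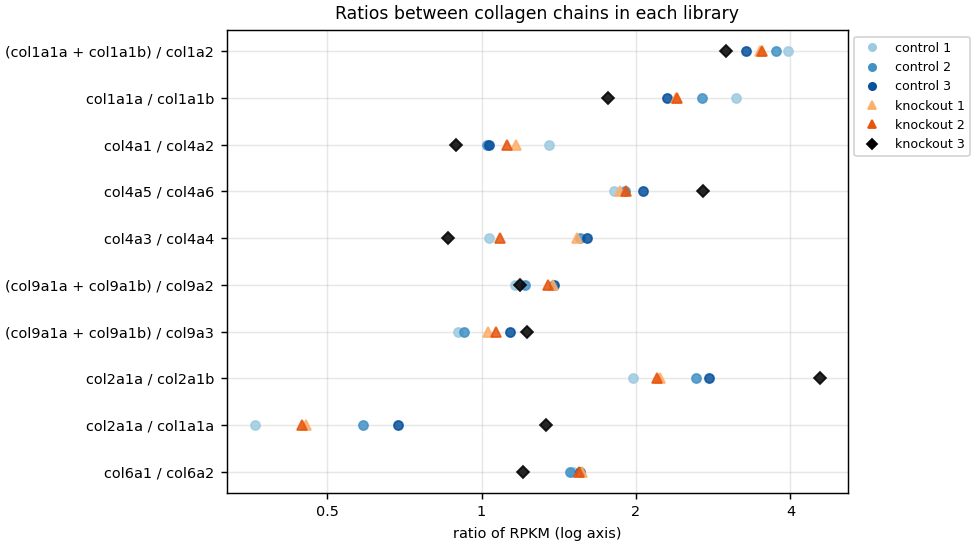
Ratios of RPKM between collagen chains within each library (log axis, 1 point per library). The type IX ratios stay between 0.901 and 1.38, whereas knockout 3 lies apart in col2a1a to col2a1b, at 4.56 against 1.98 to 2.77, and in col2a1a to col1a1a.

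Genes of collagen processing were examined next, with 43 rows of 54 listed symbols found, older names included. None of the 42 tested was called, 26 log2 fold changes were positive and their median was 0.05. All knockouts lay above all controls in 4 of the 42 and below in 3, where 6.3% and 9% of all genes tested did. The smallest p belonged to p4ha1b, a subunit of the prolyl 4-hydroxylase that stabilises the collagen helix. Its level was 11.8, 9.75 and 10.3 RPKM in controls 1, 2 and 3, against 18.9, 19.8 and 25.1 RPKM in the knockout libraries, so that the groups did not overlap. The log2 fold change was 1.04 ± 0.17 (SE) and missed the threshold (edgeR adjusted p = 0.0672). It passed without knockout 3, where the knockout group is the nearly alike pair (log2 fold change 0.91, edgeR adjusted p = 0.0115). It also passed with no filter (edgeR adjusted p = 0.0298) and by DESeq2 (adjusted p = 6.60e-05), and not in the other 10 alternatives. Over all 13 alternatives, its adjusted p ranged from 6.60e-05 (DESeq2) to 0.457 (edgeR). Its paralog p4ha2 stood at 7.74 to 9.21 RPKM in controls against 10.3, 9.95 and 20.8 RPKM in knockouts, and the crosslinking enzyme gene loxl2a at 8.25 to 9.18 and 10.4 to 11.7 RPKM (edgeR adjusted p = 0.615 for both).

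The non-collagen partners gave 0 calls. Basement membrane partners such as laminins and nidogens, 24 tested, had a median log2 fold change of 0.19, with 20 positive. The laminin gene lamb2 stood at 14.1 to 19.4 RPKM in controls and 18.01, 18.4 and 31.4 RPKM in knockouts, lamb4 at 4.50 to 5.84 and 5.64 to 7.63 RPKM, and frem2a, of the epidermal basement membrane, at 4.94 to 7.53 and 2.69 to 4.87 RPKM. Cartilage matrix genes, 15 tested, had a median of 0.16 and 11 positive. In this list matn3b stood at 4.09 to 5.08 RPKM in controls and 5.27, 4.91 and 14.9 RPKM in knockouts, epyc at 24.2 to 34.3 and 31.8 to 58.9 RPKM, and matn3a at 9.57 to 26.3 and 21.7 to 32.9 RPKM. The medians without knockout 3 were 0.01 and -0.04 for these 2 lists. Knockout 3 was the highest library in 21 of the 24 and 9 of the 15 genes, where 28.6% of all genes tested were. It was also highest in 17 of 42 processing, 9 of 12 breakdown, 8 of 14 receptor and 7 of 23 regulator genes.

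Genes of collagen breakdown, 12 tested, had a median log2 fold change of 0.16 with 10 positive and 0 called. All knockouts lay above all controls in 2 of the 12 and below in 0, where 6.3% and 9% of all genes tested did. The gelatinase gene mmp2 stood at 73.7 to 84.1 RPKM in controls and 98.3 to 153 RPKM in knockouts (log2 fold change 0.64 ± 0.20, edgeR adjusted p = 0.469), without overlap. The other gelatinase gene, mmp9, stood at 2.23 to 11.4 and 16.9 to 22.4 RPKM, and the collagenase gene mmp13a at 3.29 to 10.4 and 8.02 to 9.54 RPKM. Collagen receptors, 14 tested, had a median of 0.09. All knockouts lay above all controls in 1 of the 14 and below in 3, where 6.3% and 9% of all genes tested did. The integrin beta 1 gene itgb1b.2 was the one with an unadjusted p under 0.05, at 18.6 to 21.8 RPKM in controls and 13.5 to 15.5 RPKM in knockouts (log2 fold change -0.49 ± 0.14, edgeR adjusted p = 0.395). The integrin alpha 2 genes itga2.2 and itga2.3 had log2 fold changes of -0.33 ± 0.18 and -0.65 ± 0.35 (SE). The third, itga2.1, went the other way at 0.60 ± 0.65. The edgeR adjusted p was 0.753 for itga2.2, 0.745 for itga2.3 and 0.855 for itga2.1. Regulators, 23 tested, had a median of -0.01. The cartilage regulator gene sox9a stood at 24.1 to 32.3 RPKM in controls and 33.1 and 30.9 RPKM in knockouts 1 and 2, and was highest in knockout 3 (log2 fold change 0.64 ± 0.25). The growth factor gene ctgfa ranged from 32.6 to 53.4 RPKM across the controls, with knockouts 1 and 2 inside that range at 50.03 and 48.3 RPKM and knockout 3 at 183 RPKM. The signalling gene smad3a stood at 9.25 to 9.86 and 6.37 to 8.18 RPKM. The edgeR adjusted p was 0.626 for sox9a, 0.676 for ctgfa and 0.710 for smad3a.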

How the data were processed

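Messenger RNA of 6 libraries, 3 per group, was analysed from a table with 1 row per Ensembl gene. Per the submitters' processing notes, Trimmomatic 0.30, HISAT2 2.0.1, HTSeq 0.6.1 and DESeq were used and the build named is Zv9; order, settings, strand and the handling of reads shared by paralogs are not given in the sources used here. Read counts were taken as deposited, not normalized. RPKM values were deposited by the authors, per the file headers, and equal the counts over exonic length and library total within 0.005. Another 6 per-sample columns belong to none of these samples and were left out.

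Genes passing filterByExpr (20555, all 54 members included) were fitted with edgeR 4.0.16 in R 4.3.3 (TMM, robust quasi-likelihood test, no covariate, Benjamini-Hochberg over all genes, called under 0.05). Standard errors derive from the F statistic. Log2 CPM per library used a prior count of 2. The alternatives left out the filter, required a mean of 2 RPKM, or used DESeq2 1.42.0 or its size factors; others were the replicate block, each library left out, knockouts 1 and 2 summed, and the trend with exonic length removed. The fits were tested on counts simulated with the spread of the controls. The simulation held no library set apart and no nearly alike pair, so it does not cover these features of the knockouts. Named genes were, per class, the 4 with the highest mean RPKM and, per direction, the 3 with the smallest p at a mean of at least 1 RPKM, the chains of the ratios and, per related list, up to 3 with the smallest p; other members were named after their values were seen. The members, lists and alternatives were chosen with earlier results of these data known.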

Additional observations from a re-analysis of the deposited data

How the results depend on the processing

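No collagen gene was called, higher or lower, in any of the 13 alternatives. An unadjusted p under 0.05 was found for 1 collagen gene with the replicate block (col9a1b), and for 0 to 2 when each library was left out. Relative to the full set, the log2 fold change had the other sign in 29 of 52 collagen rows without knockout 3, in 9 without control 1 and in 0 to 6 under each of the other alternatives. The median of the cartilage genes, 0.43 in the full set, ranged from -0.18 to 0.68 when each library was left out, with the negative value without knockout 3. The fibrillar median ranged from -0.10 to 0.32 and the basement membrane median from -0.04 to 0.10. Over all genes, 21 were called higher and 3 lower; the counts were 47 and 6 with no filter, 188 and 46 by DESeq2, and 0 lower with knockouts 1 and 2 summed. They ranged from 0 to 165 higher and from 0 to 41 lower when each library was left out, with the highest counts without knockout 3, where the spread within the knockout group is that of the nearly alike knockouts 1 and 2 and may be technical only, and the lowest without control 2. The cause of these shifts was not tested. With the replicate block 17 genes were called higher and 1 lower. Same-numbered libraries did not deviate together (correlations of -0.00, -0.06 and -0.03). With knockouts 1 and 2 nearly alike, these correlations cannot decide whether the numbers pair the samples. Depth limits the rows with few reads, such as col28a1b and col10a1b.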
